A study of Mus musculus with 8 samples.

Results

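The comparison described here set cells labelled Ythdf2 cKO against cells labelled WT within the tumors that received no irradiation. The cells came from subcutaneous MC38 tumors, a mouse colon carcinoma line, and were sorted as CD45+CD11b+Ly6Chi, the gate the study used for monocytic suppressor cells of the myeloid lineage. WT mice carried floxed Ythdf2 (Ythdf2 fl/fl) and cKO mice carried the same floxed alleles with Lyz-Cre, a recombinase driven from the Lyz2 locus, which is active in monocytes, macrophages and neutrophils and need not act in other cells. Cells of 5 mice were pooled for each genotype, marked with a hashtag antibody against CD45 and MHC class I (TotalSeq B0301 for WT, B0302 for cKO), mixed and run as 1 droplet library with 3′ tags. The other 3 libraries of the series (irradiated tumor, taken 3 days after 20 Gy, and blood without and with tumor irradiation) were built the same way.

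A barcode was kept with at least 500 gene UMIs (unique molecular identifiers, counted molecules), at least 200 genes, at most 25% mitochondrial UMIs and at least 20 hashtag UMIs. It was labelled cKO where B0302 was at least 4 times B0301, and WT where B0301 was at least B0302. In control tumor 12707 barcodes passed the other filters, and 5418 of them also had the 20 hashtag UMIs. This gave 2703 cells labelled WT and 2284 labelled cKO, 4987 of the 30281 cells that the same rule labelled in the whole series, and 431 barcodes between the rules were left out. Each genotype was 1 pool of mice, and cells are not replicates, so no test between the genotypes was possible. Intervals given below are 95% intervals of counting error only (exact Poisson for a level, exact conditional binomial for a ratio, exact binomial for a share), and they do not cover the spread between mice.

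YTHDF2 is a cytoplasmic reader of N6-methyladenosine (m6A), a common internal modification of messenger RNA. It binds methylated transcripts through its YTH domain and recruits the CCR4-NOT deadenylase, which shortens the poly(A) tail and speeds decay. Transcripts of inflammatory mediators are short-lived and are often switched on by NF-kB, a transcription factor held in the cytoplasm by inhibitor proteins such as the product of Nfkbia.

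The genes that the genotype touches were read first. Lyz2 (ENSMUSG00000069516, chr10:117277331-117282321, minus strand, lysozyme and the site of the Cre insertion) gave 149131 UMIs in the cells labelled WT and 2875 in those labelled cKO, 6763 CPM (UMIs of the gene per 1000000 gene UMIs of the group, 6728 to 6797) against 114.5 CPM (110.4 to 118.8), a log2 ratio of -5.88. Ythdf2 (ENSMUSG00000040025, chr4:132184912-132212303, minus strand) went the other way, with 1268 UMIs at 57.5 CPM in WT and 9387 UMIs at 374.0 CPM in cKO, a log2 ratio of 2.70 (2.62 to 2.79). The Ythdf2 tags therefore went against the label: a 3′ tag lies at the end of the transcript, can lie outside the part that Cre removes, and does not check the deletion or the protein. For that reason the groups are called cells labelled WT and cells labelled cKO throughout. Lyz1 (chr10:117287797-117292868, minus strand), the neighbouring lysozyme gene, gave 5.67 CPM in WT and 154.8 CPM in cKO, a log2 ratio of 4.76. Of the 451 stretches of 50 bases in the last 500 bases of the Lyz2 transcript, 76 (16.85%) also occur in Lyz1, so reads of these genes can be confused and both values are uncertain. The nearest other measured genes differed little. Yeats4 and Cpsf6, on the Lyz2 side, had log2 ratios of -0.12 and 0.27, and Gmeb1 and Taf12, beside Ythdf2, had 0.27 and -0.13.

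The levels of these genes followed the hashtags. Ythdf2 was between 50.5 and 76.1 CPM in the 4 hashtag bins labelled WT and between 151.1 and 566.3 CPM in the 5 bins labelled cKO, and Lyz2 was at 764.6 CPM in the cKO bin nearest the margin (193 cells) but between 41.5 and 77.8 CPM in the 4 bins beyond it. By cluster (clusters are described below), the log2 ratio of Ythdf2 was 3.29 in cluster 0, 3.15 in cluster 1 and 2.74 in cluster 4, but -0.22 (-0.55 to 0.12) and -0.09 (-0.48 to 0.30) in the fibroblast-like clusters 7 and 10. The identity of these cells, and whether Cre acted in them, was not tested. Droplets with fewer than 100 gene UMIs, which hold free RNA, had 3122 CPM of Lyz2, and both labels shared these droplets because they shared a library.

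**Figure D1:**
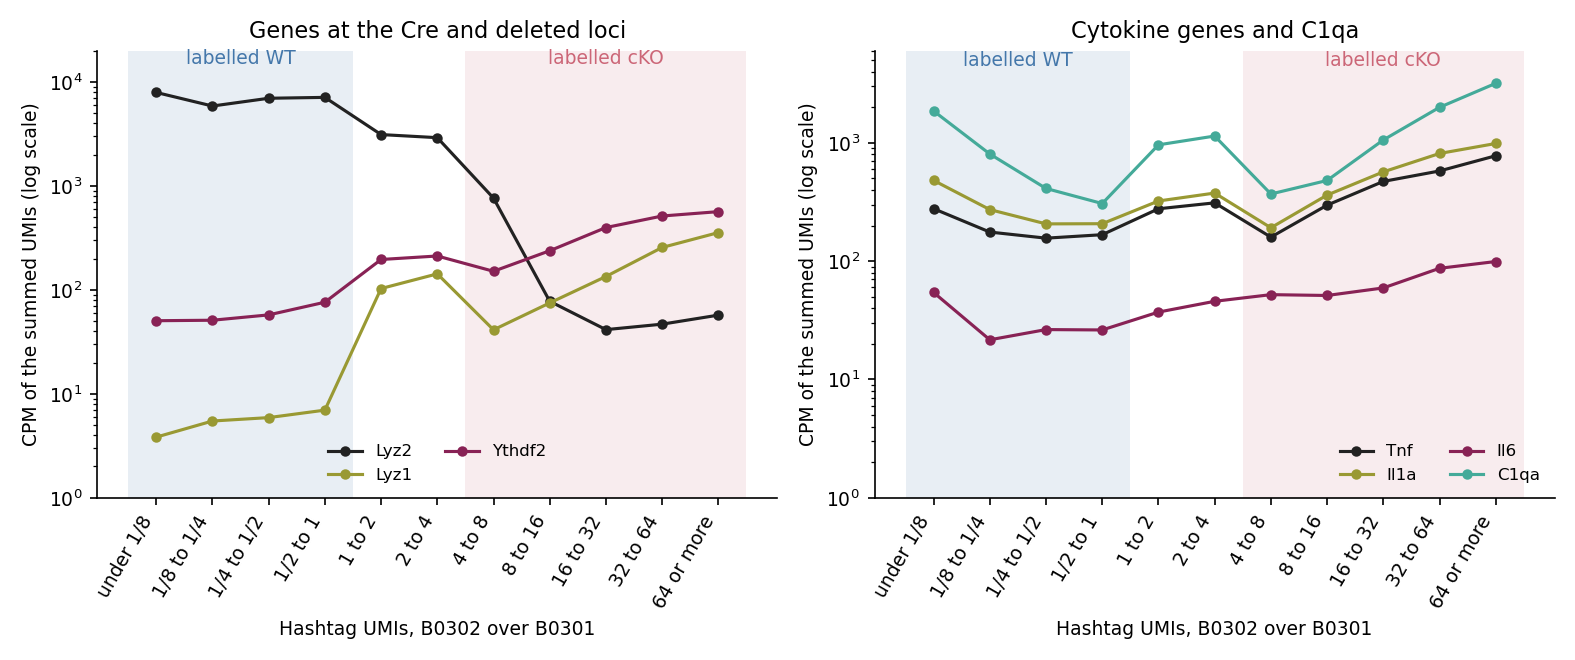
CPM (log axis) of the genes at the Cre and deleted loci (left) and of cytokine genes and C1qa (right) in barcodes grouped by the ratio of hashtag B0302 to B0301 UMIs, from WT on the left to cKO on the right. Lyz2 drops and Lyz1 and Ythdf2 climb between the labels, with intermediate Lyz2 in the barcodes between the rules, and within each label Tnf, Il1a and C1qa are highest in the outermost bin.

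Depth was similar in the 2 groups, with 22052400 gene UMIs in WT and 25098822 in cKO, but cKO cells held more per cell (median 8534.5 against 6667 UMIs). Barcodes were shared between libraries. Of the labelled cells, 95.93% of WT and 96.58% of cKO also had 500 or more gene UMIs in the irradiated tumor matrix, at a median of 0.455 and 0.454 of their UMIs here, but few had 20 hashtag UMIs there (58 WT and 81 cKO), so the labels used here belonged almost wholly to the control library. In the blood matrices at most 12 of the labelled barcodes of either group held 500 UMIs. The same barcodes in the irradiated tumor matrix gave log2 ratios with a median absolute difference of 0.0772 over 9315 genes. Because the barcodes were the same, this value does not measure the spread between cells, pools or mice. Whether both tumor matrices share droplets or reads was not tested. Leaving out the barcodes with hashtags in both tumor matrices turned the direction of none of the named genes past the limit given below.

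The composition of the sort differed between the labels. Clustering of the 4987 cells, with Ythdf2, Lyz1 and Lyz2 kept out of the clustering genes, gave 15 clusters numbered from 0, and clusters were named from fixed markers where at least 3 were raised. Macrophage-like cells made up 22.5% (20.81% to 24.27%) of the cells labelled cKO and 7.40% (6.44% to 8.45%) of those labelled WT, a difference of 15.1 points (13.1 to 17.1). Monocyte-like cells went the other way, at 16.5% (14.96% to 18.05%) of cKO and 33.9% (32.14% to 35.75%) of WT cells. With WT cells held to the same 4-fold hashtag margin as cKO cells (1085 WT cells) the differences were smaller, 8.96 points for macrophage-like and -9.25 points for monocyte-like cells. The macrophage-like difference held in cluster 4 (15.19% against 5.92%), which was led by Folr2, Mrc1 and Ccl8. Cluster 4 had 4143 CPM of C1qa, a complement gene of resident-type macrophages, and 49.5 CPM of Mki67. The difference also held in a cycling cluster with 414.7 CPM of Mki67 (cluster 9, 7.31% against 1.48%). Among monocyte-like cells, cluster 1 (Ace, Plac8 and Hp) was at 9.59% of cKO and 16.02% of WT cells, cluster 3 (Nos2, Cxcl9 and Ly6i) at 5.82% and 15.24%, and the small interferon-rich cluster 11 (Rsad2 and Ifit3) at 1.05% and 2.66%. The order of cluster 1 turned with the 4-fold margin, to 9.59% of cKO and 5.16% of WT cells, while clusters 3 and 11 stayed smaller in cKO.

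Several clusters had no name under the marker rule. Cluster 0, led by Cdh1, Dcstamp, Fn1 and Spp1 and with 3973 CPM of Arg1, the arginine-degrading enzyme of suppressive myeloid cells, was at 21.54% of cKO and 14.58% of WT cells, a difference of 6.96 points (4.82 to 9.12) that turned to -2.70 points with the 4-fold margin for WT, where WT was at 24.24%. Cluster 2, led by Hspa1a, Cxcl3 and Thbs1, was at 9.15% of cKO and 15.98% of WT cells. The sort also held cells outside the gate's intended type. NK cell-like cells, which also had Cd3g, Cd3d and Trbc2 among their leading genes, were 3.94% (3.18% to 4.82%) of cKO and 6.55% (5.64% to 7.55%) of WT cells. Fibroblast-like cells were 10.9% (9.61% to 12.2%) of cKO and 4.44% (3.69% to 5.29%) of WT cells, with a median of 23960 UMIs per cell in the non-cycling cluster. Defining leukocyte genes were near 0 in them, with 7.20 CPM of Ptprc (CD45) and 10.3 CPM of Itgam (CD11b), and the epithelial genes Krt8 and Epcam were at 0 in the non-cycling cluster 7. The name rests on 5 raised fibroblast markers in cluster 7 and 3 in the cycling cluster 10. Whether these were stromal or tumor cells was not tested. Neutrophil-like cells (1.14% of cKO and 0.67% of WT cells) and mature dendritic cell-like cells (0.79% and 0.96%) had intervals of the difference that included 0. Shares also depend on the pooling of unequal numbers of cells per mouse, which the labels do not give.

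**Figure D2:**
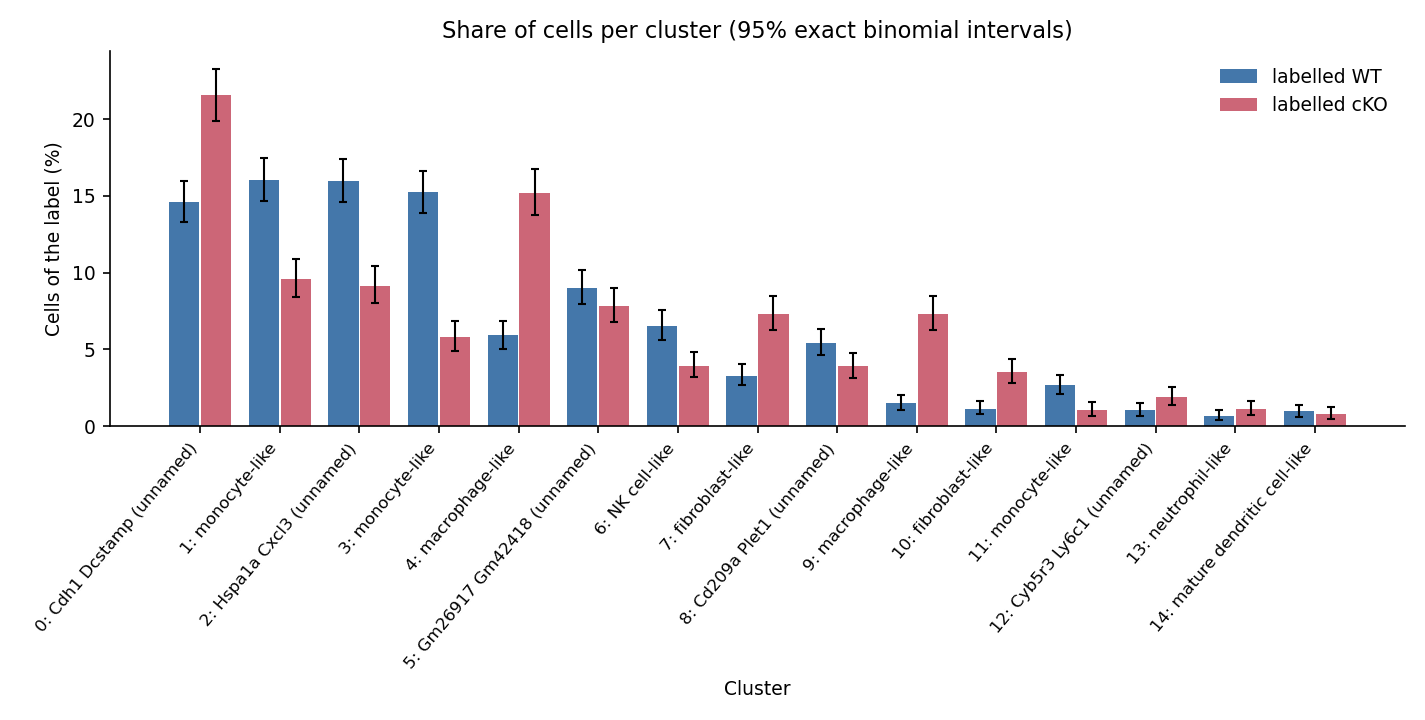
Share of the cells labelled WT and cKO (percent) in each of the 15 clusters, with 95% exact binomial intervals. Clusters 0, 4, 7, 9 and 10 hold larger shares of the cKO cells and clusters 1, 2, 3, 6 and 11 larger shares of the WT cells, and the order turns for clusters 0 and 1 with the 4-fold margin for WT.

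Summed over all cells, 509 of the 10770 genes with at least 100 UMIs in both groups together (4.73%) were past a limit of 1 on the log2 scale. Of these, 361 (3.35%) were higher and 148 (1.37%) lower in cKO, and the median log2 ratio of all genes was 0.11. With TMM scaling the split was 241 higher and 197 lower, and with DESeq2 size factors 231 higher and 205 lower. In sums, fewer cells of a type and less RNA per cell cannot be told apart. To set the mix of clusters aside, the WT level of each gene was also recomputed with each cluster weighted by its share of the cKO UMIs, which is called reweighted below. After reweighting 57 genes (0.529%) were past the limit, 39 higher (0.362%) and 18 lower (0.167%), 45 of them in common with the sums in the same direction. For 464 genes the limit was passed in the sums only.

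**Figure D3:**
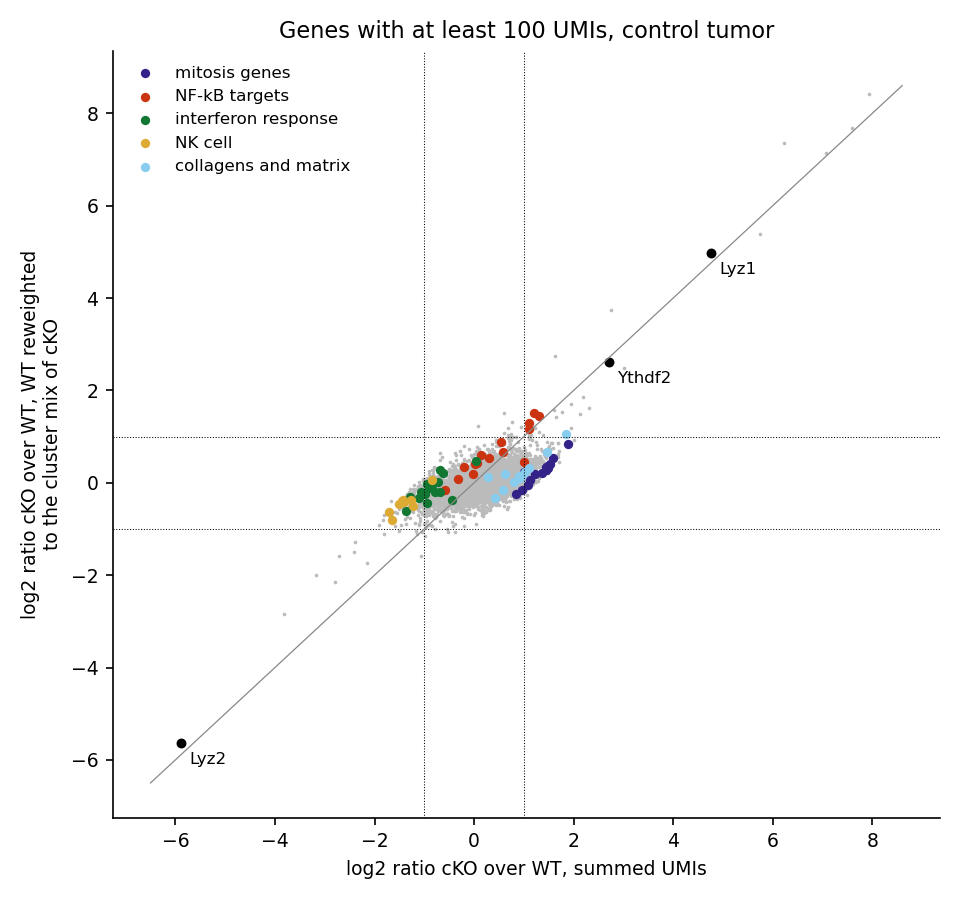
Log2 ratio of cKO over WT in summed UMIs (x axis) and with WT reweighted to the cKO mix of clusters (y axis) for genes with at least 100 UMIs, with colours for gene lists, dotted lines at the limit and a diagonal where both ratios are equal. Most genes past the limit on the x axis lie within it on the y axis, while Lyz2, Lyz1, Ythdf2, Tnf, Ccl4, Tnfsf9, Il6 and Il1a are past it on both.

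A small group of inflammatory genes differed within cells of the same cluster. The 5 largest clusters (0 to 4) were compared one by one over the 3607 genes with at least 100 UMIs in each, and in any single cluster between 0.737% and 1.5% of its measured genes were past the limit (0.737%, 0.935%, 1.09%, 1.5% and 0.838% in clusters 0 to 4). Past the limit and higher in cKO in all 5 clusters were Tnf, Ccl4, Tnfsf9, the uncharacterized transcript Gm14636 and Ythdf2, and lower in all 5 was Lyz2 alone. Il1a and Il6 were past the limit in 4 clusters, and Acod1 and Areg in 3. The cytokine genes were not kept out of the clustering genes, unlike the label genes. Tnfsf9, Acod1, Areg and, below, Txnip, Bcl2a1b and Olr1 are outside the rule for named genes and were chosen after their values were seen.

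Tnf (ENSMUSG00000024401, chr17:35199381-35202007, minus strand) encodes the inflammatory cytokine TNF. Its level was 216.2 CPM in WT and 697.8 CPM in cKO in cluster 0 and 121.5 against 554.0 CPM in cluster 1. In the remaining clusters it was 288.9 against 1094 CPM (cluster 2), 298.4 against 923.0 CPM (cluster 3) and 270.4 against 658.3 CPM (cluster 4). The cKO level of Tnf was thus the higher in each of the 5, with log2 ratios from 1.28 (1.14 to 1.43) in macrophage-like cluster 4 to 2.19 in monocyte-like cluster 1. In sums Tnf was at 180.4 CPM (174.9 to 186.1) in WT and 448.0 CPM (439.8 to 456.4) in cKO, a log2 ratio of 1.31 that became 1.45 after reweighting. In cycling macrophage-like cluster 9 Tnf was 298.6 against 346.8 CPM, a log2 ratio of 0.22 (-0.02 to 0.45) whose interval included 0.

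Ccl4 (ENSMUSG00000018930, chr11:83662584-83664683, plus strand) encodes the chemokine MIP-1 beta, which draws T cells and monocytes. It was 421.8 against 1117 CPM in cluster 0, 207.3 against 929.0 CPM in cluster 1 and 1337 against 3109 CPM in cluster 2. In cluster 3 it was 476.5 against 1049 CPM and in cluster 4 it was 1107 against 2680 CPM, WT first throughout. The log2 ratio was therefore between 1.14 and 2.16 in these clusters, but it was -0.69 in NK cell-like cluster 6, -1.30 in fibroblast-like cluster 7 and -0.56 in the Cd209a-rich cluster 8, so the higher level of Ccl4 in cKO was not shared by every cluster. Without the barcodes that had hashtags in both tumor matrices, its lowest ratio in the 5 clusters was 0.95, just inside the limit.

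Tnfsf9 (ENSMUSG00000035678, chr17:57105325-57107757, plus strand) encodes 4-1BBL, the ligand of a costimulatory receptor of T cells. It was at 117.4 CPM in WT and 307.4 CPM in cKO in cluster 0, at 33.8 and 137.4 CPM in cluster 1 and at 99.95 and 307.7 CPM in cluster 2. In clusters 3 and 4 it was at 68.0 and 158.5 CPM and at 177.8 and 427.3 CPM. Outside these, Tnfsf9 was also higher in cKO in the Cd209a-rich cluster 8 (44.8 against 128.4 CPM), in contrast to a log2 ratio of -0.59 in fibroblast-like cluster 7.

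The interleukins behaved alike in most clusters but not all. Il1a (ENSMUSG00000027399, chr2:129299610-129309972, minus strand), which encodes the alarmin IL-1 alpha, was at 45.1 CPM in WT and 372.2 CPM in cKO in cluster 1, the widest gap, and at 447.7 and 763.9 CPM in cluster 4, the narrowest (log2 ratios 3.03 and 0.77). Il6 (ENSMUSG00000025746, chr5:30013114-30019981, plus strand), which encodes the cytokine IL-6, was low everywhere, from 12.4 to 73.0 CPM in WT and from 49.6 to 136.9 CPM in cKO over the 5 clusters, with log2 ratios from 0.90 in cluster 2 to 2.92 in cluster 1. Both genes thus stood furthest apart in monocyte-like cluster 1. In sums the log2 ratio was 1.11 (1.06 to 1.15) for Il1a and 1.21 (1.07 to 1.34) for Il6.

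Acod1 (ENSMUSG00000022126, chr14:103046977-103056573, plus strand) encodes the enzyme that makes itaconate, a metabolite of activated macrophages. It was not past the limit in sums (119.7 against 192.2 CPM, log2 ratio 0.68) but reached 1.197 after reweighting, and in the clusters its log2 ratio ran from 0.90 to 2.07. Socs3, a feedback inhibitor of cytokine receptors that the study discusses, showed the same kind of gap at a smaller size, with 404.1 against 516.2 CPM in sums (0.35), 0.73 after reweighting and 0.67 to 1.05 in the clusters. For both genes the difference was larger within clusters than in the sums.

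Of the 3607 genes, 421 were below 0 and 311 above 0 in every one of the 5 clusters, mostly inside the limit. Lower past the limit were 13, 6, 25, 43 and 15 genes in clusters 0 to 4, against 36, 34, 20, 21 and 32 higher, and 4 genes were lower past it in at least 2 of these clusters, against 19 higher. Txnip (chr3:96557957-96561883, plus strand), which encodes a glucose-responsive inhibitor of thioredoxin, was at 147.0 CPM in WT and 57.3 CPM in cKO in sums, a log2 ratio of -1.36 (-1.45 to -1.27), and was past the limit in 3 of the 5 clusters. Its range over the clusters was -1.27 to -0.59. Thbs1, which encodes the matrix protein thrombospondin 1, was below 0 in all 5 clusters but past the limit in cluster 3 only (-1.10).

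**Figure D4:**
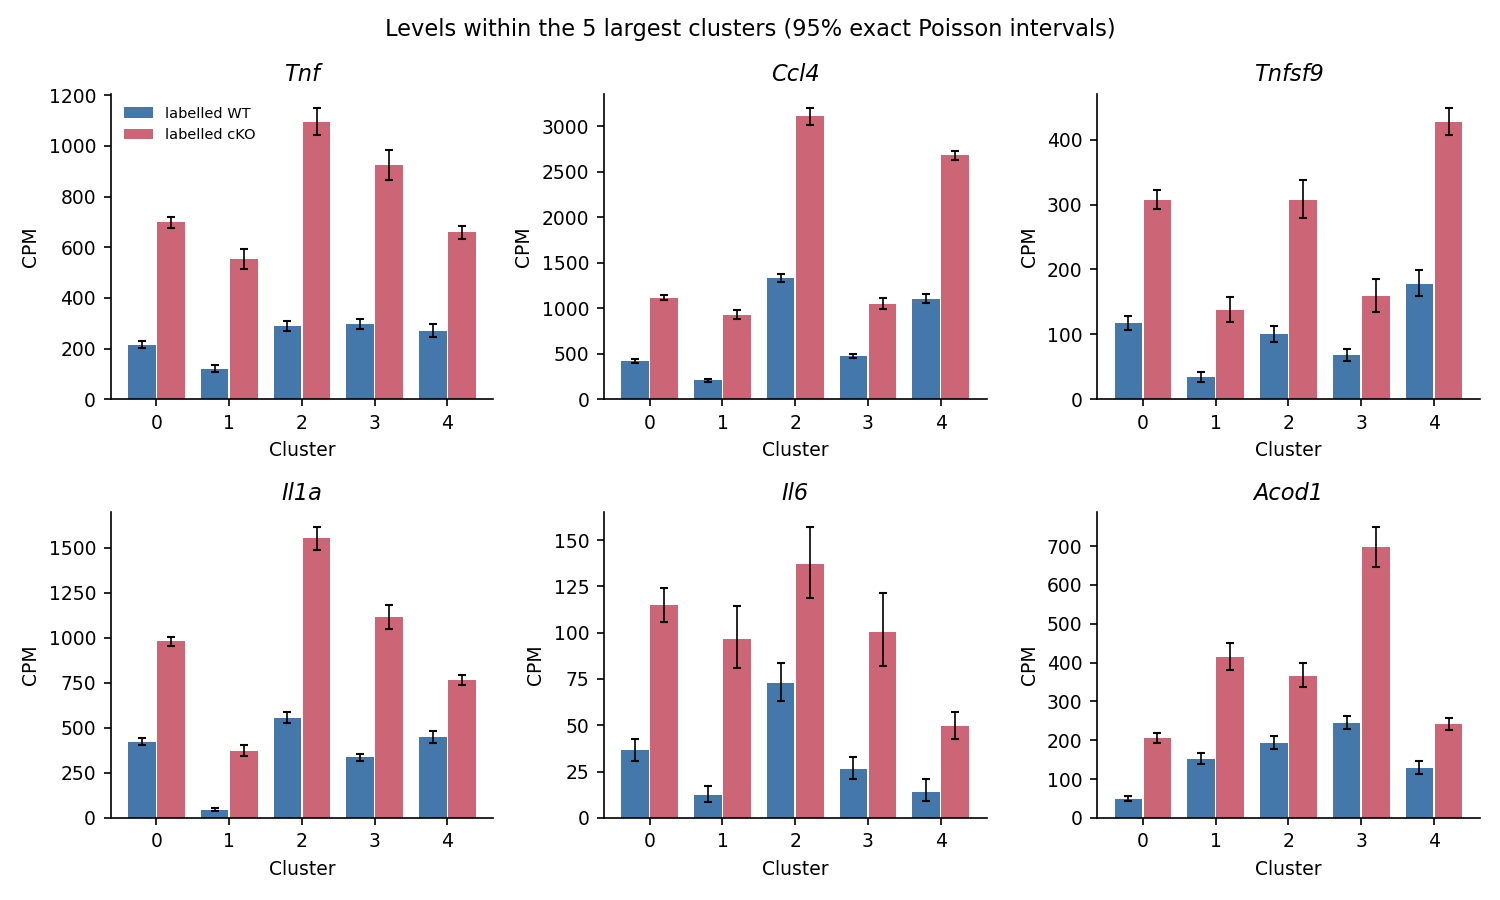
CPM (bars) of 6 inflammatory genes in the 5 largest clusters for cells labelled WT and cKO, with 95% exact Poisson intervals. Tnf, Ccl4 and Tnfsf9 are higher in cKO in each cluster, with intervals that do not overlap.

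Promoter sequences are shown for 3 of these cytokine genes, because NF-kB binds kB letters, searched for here as GGG, any 5 bases and CC, in many inflammatory promoters. Of the 18 genes past the limit and higher in at least 2 of the 5 clusters, leaving out the label genes, 14 were in the RefSeq promoter table and 12 had a start within 1000 bases of the gene's start in the annotation. On both strands of the 250 bases before the start, 9 of the 12 held the kB letters (Tnf, Il6, Acod1, Areg, Chil3, Cxcl1, Cxcl2, Egr2 and Socs3), while 45.8% of all 32851 promoters did. The AP-1 letters TGANTCA were in 4 of the 12 (Il1a, Il6, Bcl2a1b and Olr1) and in 6.75% of all promoters, and the CRE letters TGACGTCA in Areg alone and in 1.55% of all. A match is a description of these letters and not a bound site. Ccl4 and Tnfsf9 could not be matched and no sequence is shown for them. The sequences are those of RefSeq on GRCm38.p6, written in the direction of transcription and ending just before the start, with kB letters in capitals. They lie at chr17:35202008-35202257 (Tnf, minus strand), chr5:30012864-30013113 (Il6, plus strand) and chr2:129309973-129310222 (Il1a, minus strand).
Tnf: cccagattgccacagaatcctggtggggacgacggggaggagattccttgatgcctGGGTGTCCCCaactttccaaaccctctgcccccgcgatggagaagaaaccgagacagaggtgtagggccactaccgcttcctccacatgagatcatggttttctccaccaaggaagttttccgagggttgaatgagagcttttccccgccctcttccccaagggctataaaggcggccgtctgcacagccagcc
Il6: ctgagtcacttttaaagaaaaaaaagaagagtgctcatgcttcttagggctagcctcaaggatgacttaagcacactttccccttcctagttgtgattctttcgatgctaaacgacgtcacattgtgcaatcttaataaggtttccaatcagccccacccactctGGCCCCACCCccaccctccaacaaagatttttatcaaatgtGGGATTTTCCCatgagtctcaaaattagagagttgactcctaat
Il1a: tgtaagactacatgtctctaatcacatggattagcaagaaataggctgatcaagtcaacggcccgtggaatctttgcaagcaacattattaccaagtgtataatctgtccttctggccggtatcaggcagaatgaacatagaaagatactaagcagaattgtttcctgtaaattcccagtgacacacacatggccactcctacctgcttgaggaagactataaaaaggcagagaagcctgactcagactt
The Tnf promoter held 1 match, with its first base at position -194 from the start, and Il6 held 3, at -85, -44 and -43, the last 2 overlapping and drawn as 1 run of capitals. Il1a held none and had 1 AP-1 match.

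The list of NF-kB target genes includes Tnf, Il6, Il1a and Ccl4, already picked above from these data, so it is not separate support for them. Of 15 measured targets, 5 were past the limit in sums and higher in cKO (Tnf, Il6, Il1a, Ccl4 and the neutrophil chemokine gene Cxcl1, at 648.2 against 1306 CPM), where 3.35% of all genes were, and none was lower. Cxcl1 was at 0.44 after reweighting, inside the limit. The median log2 ratio of the list was 0.30 in sums, where that of all genes was 0.11, and 0.53 after reweighting, where 14 of the 15 were above 0. Within clusters 0 to 4 the median was 0.48, 1.58, 0.70, 0.83 and 0.58, with 4, 10, 3, 6 and 3 targets past the limit and higher. Cluster 1 thus held the widest gap. The pathway's own machinery differed less. In sums none of 13 NF-kB subunits and inhibitors was past the limit (median -0.03), with Nfkb1 at 0.14, Rela at -0.01 and the inhibitor gene Nfkbia at 1812 against 2411 CPM (0.41). After reweighting the median was 0.10, with 10 of 13 above 0. Within clusters 0 to 4 it was 0.28, 0.32, 0.32, 0.10 and 0.20. Above 0 there were 10, 11, 11, 7 and 11 of 12 measured genes, with 2 past the limit and higher in cluster 1.

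The study discusses negative regulators of NF-kB whose transcripts carry m6A. In sums Metrnl (a secreted regulator of macrophages) had a log2 ratio of 0.08 at 216.4 against 228.9 CPM, Smpdl3b (a membrane phosphodiesterase) -0.13 and Tnfaip8l2 (an inhibitor of Toll-like receptor signalling) 0.17, so none of these was past the limit. After reweighting Metrnl was at 0.25, Smpdl3b at 0.33 and Tnfaip8l2 at 0.50. Metrnl was above 0 in each of the 5 clusters, between 0.23 and 0.45.

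Genes of the m6A machinery other than Ythdf2 were near 0. The readers Ythdf1, Ythdf3, Ythdc1 and Ythdc2 had log2 ratios of 0.06, 0.01, -0.26 and -0.03. Among 11 writers and erasers none was past the limit (median 0.04), with the methyltransferase genes Mettl3 at 0.04 and Mettl14 at 0.24 and the demethylase genes Fto at 0.48 and Alkbh5 at 0.15. The 14 decay partners, among them Cnot1 of the CCR4-NOT complex at 0.02, had a median of 0.06 and no member past the limit.

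**Figure D5:**
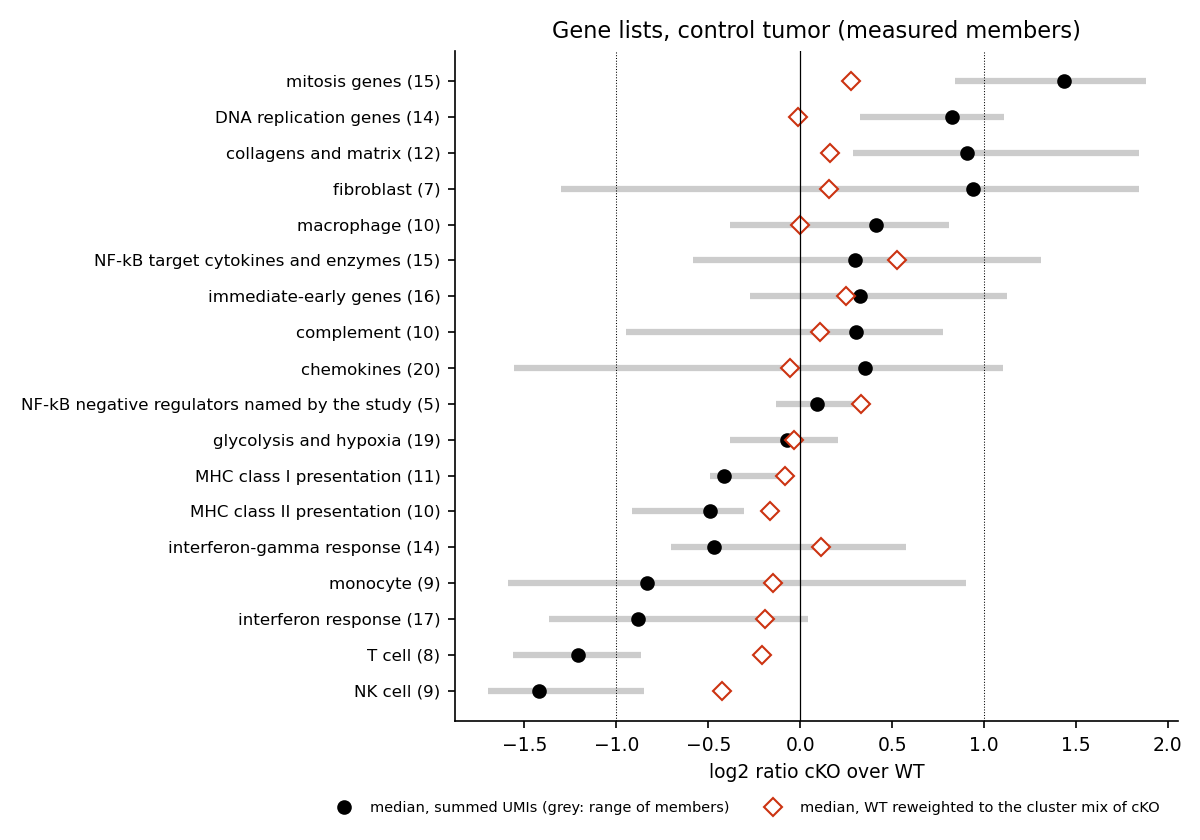
Log2 ratio of cKO over WT for the measured members of each gene list, in summed UMIs and with WT reweighted to the cKO mix of clusters. Mitosis genes and collagens lie above 0 and NK and T cell markers below 0 in the sums, and they move toward 0 after reweighting, while the NF-kB targets move up.

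Interferon-stimulated and antigen presentation genes were lower in cKO in the sums. Of 17 interferon-stimulated genes 4 were past the limit and lower, the antiviral genes Rsad2 (141.7 against 58.4 CPM, log2 ratio -1.28), Oas2 (-1.37) and Ifit3 (-1.06) and the transcription factor gene Irf7 (-1.11), where 1.37% of all genes were, and none was higher. The list's median was -0.88 in sums and -0.19 after reweighting, and Rsad2 itself moved to -0.32. All 10 MHC class II genes were below 0 and none was past the limit (median -0.49), with H2-Ab1 at 3528 against 2375 CPM and the invariant chain gene Cd74 at 8405 against 5951 CPM. After reweighting the class II median was -0.16. Cd209a, a lectin gene of dendritic cells, had a log2 ratio of -1.59 in sums, which turned to 0.33 with the 4-fold margin for WT. Of 14 genes induced by interferon gamma none was past the limit in sums (median -0.47), and their median was 0.11 after reweighting. Clusters 3 and 8, with 6930 and 9973 CPM of the class II gene H2-Aa, and the Rsad2-led cluster 11 held smaller shares of the cKO than of the WT cells, but cluster 8 turned to 3.90% of cKO and 2.49% of WT cells with the 4-fold margin for WT.

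Proliferation genes were higher in cKO in the sums and closer to 0 within a fixed mix. Of 15 mitosis genes 13 were past the limit and higher, where 3.35% of all genes were. Among the 13 were Cdc20, an activator of the anaphase-promoting complex (10.97 against 40.48 CPM), and Birc5, which encodes survivin (34.4 against 93.3 CPM). The proliferation marker Mki67 (49.2 against 104.7 CPM) was also among them. The median of the 15 mitosis genes was 1.44. Their median after reweighting was 0.28, with 12 of the 15 above 0, where that of all genes was -0.004, and the members ran from Bub1 at -0.24 to Cdc20 at 0.83, with Mki67 at -0.05. DNA replication genes showed the same at a smaller size (3 of 14 past the limit, Mcm2, Mcm5 and Mcm7, median 0.83 and -0.01 after reweighting). Within clusters fewer of these genes were measured. Of the DNA replication genes, 9 of 10 were above 0 in cluster 0 (median 0.39) and 9 of 9 in cluster 4 (median 0.55, 1 past the limit and higher). In clusters 1, 2 and 3 only 1 was measured, at -0.04, -0.29 and -0.48. Only 1 mitosis gene was measured in clusters 0 and 4, at 0.90 and 1.36, and none in clusters 1, 2 and 3. Cycling cluster 10, fibroblast-like by its markers, was at 3.55% of cKO and 1.15% of WT cells, beside the cycling macrophage-like cluster 9 given above. Collagens moved with them. Of 12 collagen and matrix genes 4 were past the limit and higher, where 3.35% of all genes were. The 4 were led by the fibrillar collagen gene Col1a1 (11.4 against 41.1 CPM, 1.84) and Col1a2 (26.1 against 71.8 CPM). The list median was 0.91 in sums, 0.16 after reweighting and 1.72 with the 4-fold margin for WT. Fibroblast-like cluster 7 gave 16.52% of all cKO UMIs and 10.15% of WT UMIs, and cluster 10 gave 13.43% and 6.37%. The summed level of the 7 measured fibroblast markers was 455.6 CPM in WT and 699.8 CPM in cKO, with 3 past the limit and higher and Thy1, which T cells also express, lower (-1.30).

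Cytotoxic lymphocyte genes were lower in cKO. Past the limit and lower were 1.37% of all genes. Of 9 NK cell markers 8 were past the limit and lower (median -1.42), with the granzyme genes Gzmb at 141.0 against 43.4 CPM and Gzma at 317.3 against 115.6 CPM and the perforin gene Prf1 at 45.6 against 15.9 CPM. Of 8 T cell markers 6 were lower past the limit (median -1.21), among them Cd8a at 7.39 against 2.47 CPM. The medians after reweighting were -0.43 and -0.21. Ifng (chr10:118441046-118445892, plus strand), the interferon gamma gene, had 323 UMIs in WT and 40 in cKO, a log2 ratio of -3.17 (-3.71 to -2.72), but 57.89% of the WT UMIs lay in 1 cell. The inhibitory receptor gene Pdcd1 had 177 and 37 UMIs. The summed level of the 9 NK cell markers was 731.8 CPM in WT and 264.2 CPM in cKO, beside the smaller share of NK cell-like cells in cKO given above.

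Monocyte markers were lower in cKO in the sums, and macrophage markers differed by less. Of 9 monocyte markers 4 were past the limit and lower in cKO, where 1.37% of all genes were. Among the 4 were Ly6c2, which encodes the gate's surface antigen Ly6C (449.0 against 159.8 CPM, -1.49), and Plac8 (1458 against 625.1 CPM). After reweighting Ly6c2 was at -0.54, and it was below 0 in all 5 clusters, between -0.96 and -0.19. Ccr2, the chemokine receptor that brings monocytes to tumors, was at 0.02 in sums and 0.36 after reweighting. None of 10 macrophage markers was past the limit (median 0.41), with C1qa at 712.7 against 1221 CPM (0.78, and 0.22 after reweighting). Within macrophage-like cluster 4 C1qa was at 0.12. With the 4-fold margin for WT these differences were smaller or gone: the median was -0.03 for the macrophage markers and -0.004 for the monocyte markers (-0.83 otherwise), and C1qa was at 0.15, Ly6c2 at -0.98 and Plac8 at -0.54.

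Chemokine genes went in both directions, where 3.35% of all genes were past the limit and higher and 1.37% lower. Higher past the limit in cKO were 4 of 20, Ccl4, Cxcl1 and the monocyte attractants Ccl2 (1268 against 2573 CPM, log2 ratio 1.02) and Ccl7 (530.4 against 1077 CPM). Lower were Ccl5, a product of T and NK cells (772.9 against 262.8 CPM, -1.56), and Ccl22, a dendritic cell chemokine (46.3 against 19.3 CPM). After reweighting Ccl2 was at 0.59 and Ccl5 at -0.47. Ccl2 was not of one direction within clusters, with 1.12 in cluster 0 and -0.16 in cluster 3.

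Genes of suppressive function were mostly inside the limit in sums, in both directions. Arg1 was at 1690 CPM in WT and 2486 CPM in cKO, a log2 ratio of 0.56 (0.46 after reweighting, 0.17 to 1.42 in the clusters, and 0.02 in sums with the 4-fold margin for WT). The other enzyme of arginine use in these cells, the nitric oxide synthase gene Nos2, was at -0.70 in sums and 0.16 after reweighting. Il10 was at 0.28, Vegfa at -0.38 and below 0 in each of the 5 clusters (-0.62 to -0.18), and Thbs1 at 1355 against 624.5 CPM (-1.12). The 19 glycolysis genes, 18 oxidative phosphorylation genes and 12 p53 targets had no member past the limit, with medians of -0.07, 0.05 and -0.11.

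Hashtag brightness moved with the inflammatory genes. Within the cells labelled WT, Tnf was 277.5 CPM in the bin with the least B0302 against B0301 and between 156.4 and 176.1 CPM in the other 3 bins, while C1qa was 1858 and 306.8 CPM in the first and last of the 4. Within cKO, Tnf was 159.6 CPM in the bin nearest the margin, 297.3, 471.8 and 578.2 CPM in the next 3 and 777.2 CPM in the last, and C1qa was 369.4 CPM in the first and 3182 CPM in the last. Median UMIs per cell were likewise 10692 and 5951 in the outer and inner WT bins and 12053 and 5979 in the outer and inner cKO bins. Brightness, cell type and depth thus moved together in both labels, and their part in the result was not tested. With WT cells held to the same 4-fold margin as cKO cells, Tnf was at 1.13, Tnfsf9 at 1.03, Il6 at 1.09, Ccl4 at 0.98 and Il1a at 0.78 in sums, and Tnf, Ccl4, Tnfsf9 and Gm14636 were past the limit in all 5 clusters.

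The largest ratios of all often came from single cells. Hbb-bs, a globin gene, had 2 UMIs in WT and 817 in cKO, 97.31% of them in 1 cell, and Mcpt8, a basophil protease gene, had 0 and 141 (at least 41.3-fold higher, with a floor of 3 UMIs for WT). Il4 had 5 and 503 UMIs, the latter in 9 cells. In all, 7 genes past the limit had over 50% of their UMIs in 1 cell. Csf2, the gene of the myeloid growth factor GM-CSF, was spread over more cells, with 251 UMIs in 38 WT cells and 1418 in 78 cKO cells (log2 ratio 2.31, 1.61 after reweighting). Mmp9, a gelatinase gene of neutrophils, had 34 and 179 UMIs (2.18). Retnlg, another neutrophil gene, had 90 and 322 (1.64).

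Within the largest class, monocyte-like cells, the 10 highest ratios included the genes above and some of low counts. Besides Lyz1 (3.95), Ythdf2 (2.93) and Gm14636 (2.24), Tnf was at 1.75, Il6 at 1.82, Il1a at 1.64, the growth factor gene Lif at 1.62 and the chemokine gene Ccl17 at 1.73. The lowest besides Lyz2 (-4.68) included Gzma (94 and 9 UMIs, -2.06), the thrombomodulin gene Thbd (137 and 20 UMIs, -1.49) and Il7r, the interleukin 7 receptor gene (609 and 114 UMIs, -1.16). S100a8, a neutrophil and monocyte calprotectin gene, was among the highest at 2.23 but was at -1.70 in cluster 0 and -1.42 in cluster 2.

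The other libraries gave other values for the same genes. By the same rule 0.986% of genes were past the limit in irradiated tumor, 2.12% in control blood and 0.695% in irradiated blood. Lyz2 and Ythdf2 differed in all of them, at -5.31, -6.56 and -7.25 and at 2.62, 3.15 and 3.26. Tnf had log2 ratios of -0.23 in irradiated tumor, 0.76 in control blood and -0.02 in irradiated blood. Ccl4 was at -0.08, Tnfsf9 at 0.09, Il1a at -0.10 and Il6 at -0.24 in irradiated tumor, so none of them was past the limit there. The NF-kB target list had a median of -0.15 in irradiated tumor, with 2 of 15 measured targets above 0. In control blood, unlike Tnf, the list had a median of -0.51, with 4 of 12 measured targets past the limit and lower and none higher. In irradiated blood its median was -0.26, with 2 of 11 past the limit and lower and none higher. Over all genes, 145 of 9775 were past the limit and lower in control blood and 51 of 9779 in irradiated blood. The difference between the libraries was not tested.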

How the data were processed

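Cells of untreated MC38 tumors were measured as 3′ tag single-cell RNA with hashtag oligonucleotides. The authors deposited raw UMI counts per feature and barcode for all barcodes, with no normalization; the submitters' processing notes name Cell Ranger 6.0.1, Seurat 4.0.6 and mm10, and the methods name GENCODE vM23, HTODemux and DoubletFinder at an assumed rate of 6%. Cells were chosen and labelled by the thresholds given in the text, with HTODemux (quantile 0.99) as an alternative. Scrublet (scanpy 1.11.5) called 3 barcodes by its own threshold, which was not used, and the 6% with the highest scores (299 cells) were removed as an alternative only.

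UMIs were summed per label in Python 3.11.15 (numpy 2.4.6, scipy 1.17.1, pandas 2.3.3). A log2 ratio was taken of CPM after adding 1 UMI scaled to depth, and the limit was 1 among genes with at least 100 UMIs in both labels together. Intervals of a difference in shares are Newcombe's. Cells were clustered with Seurat 5.3.0 in R 4.3.3 (2000 variable genes, 40 components, resolution 0.8). A cluster was named where at least 3 markers were in at least 25% of its cells and at least 2 times the level of the other cells after adding 5 CPM, thresholds set after the data had been examined. TMM factors (edgeR 4.0.16) were 0.966 for WT and 1.035 for cKO, and size factors (DESeq2 1.42.0) were 0.903 and 1.11. No count model was fitted, since each label was 1 pool. The summing and ratio steps were tested on simulated counts.

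Gene positions came from GENCODE vM21, in which 468 of 468 named genes matched by identifier, and promoters from RefSeq on GRCm38.p6. Named genes were the label genes, genes the study discusses, the 15 highest and 15 lowest ratios, members of the gene lists past the limit (otherwise the members farthest from 0 or with the highest CPM) and the 10 highest and 10 lowest in the class with most cells. Some of them are not reported here. The members, lists and rules were chosen with earlier results of these data known. Alternatives were other hashtag rules, cell filters, gene minimums, scalings, resolutions and cell mixes. The 8-fold cKO margin, the placing of the barcodes between the rules, leaving out the cell with the most UMIs of a gene, leaving out fibroblast-like clusters and the alternatives within clusters were chosen after seeing the data.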

Additional observations from a re-analysis of the deposited data

Results flagged for a closer look

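Several results had the opposite sign in irradiated tumor, in each case with 1 pool per label, so the difference was not tested. The values below are log2 ratios of cKO over WT, control tumor first. The mitosis genes had a median of 1.44 against -1.05 (Cdc20 1.88 and -1.07, Cenpf 1.53 and -1.22, Ccnb1 1.48 and -1.15, Ube2c 1.45 and -1.05, Birc5 1.44 and -1.16, Cenpe 1.44 and -1.41, Plk1 1.37 and -1.15). Collagens and matrix genes had a median of 0.91 against -0.74, with Col1a1 at 1.84 and -1.08, and the fibroblast markers 0.94 against -0.77. The NK cell markers had a median of -1.42 against 0.56 and the T cell markers -1.21 against 0.55. Ubd, a ubiquitin-like modifier gene, was at 1.95 and -1.78, and the neutrophil gene Retnlg at 1.64 and -1.17. Of 9966 genes measured in both tumor libraries, 42 were past the limit and higher here and lower there, and 2 the other way.

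Outside the comparison, the 431 barcodes between the hashtag rules held 3036 CPM of Lyz2, below the WT level and above the cKO level.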

How the results depend on the processing

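No paired analysis was possible because each genotype was 1 pool in the library, so no replicate could be left out either. Over 26 settings, 1931 of 2652 values of named genes moved by less than their counting error, 714 moved further, and 7 of genes past the limit changed sign. Sign also changed in 26 values of 8 genes inside the limit, and in 86 values of 19 lists with a median inside 0.5. For the 95 named genes past the limit, 1808 of 2032 values stayed past it. The number of genes past the limit (509, 361 higher and 148 lower) was 961 (698 and 263) with a minimum of 20 UMIs, 202 (135 and 67) with 500, and 3102 (1599 and 1503) with no minimum. It was 858 with the same 4-fold margin for WT (730 higher) and 846 (774 and 72) with every cell weighted equally. Without fibroblast-like clusters it was 285 (199 and 86), without fibroblast-like and NK cell-like clusters 270 (211 and 59), and with WT reweighted 57 (39 and 18). With DESeq2 size factors 231 were higher, and with cKO at 8 times 234. Lower genes numbered 86 both in macrophage-like and monocyte-like cells only and in the UMIs of the same barcodes in the irradiated tumor matrix. Of the lists with at least 5 measured genes, 8 had a median past 0.5, and 1 after reweighting.

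With the 4-fold WT margin, the difference in shares was 8.96 points for macrophage-like, -9.25 for monocyte-like, -1.13 for NK cell-like and 8.28 for fibroblast-like cells. At resolution 1.2 the monocyte-like difference was -20.1 points, and with cKO at 8 times the fibroblast-like difference was 4.70 points. Cluster shares also turned for cluster 5 with at least 2000 UMIs and cluster 12 with cKO at 8 times, beside clusters 0, 1 and 8 with the 4-fold WT margin. Among genes past the limit and lists with a median past 0.5, signs changed for Cd209a (0.33) and Lcn2 (0.014) with the 4-fold WT margin, for Gzmf (0.90) without the 6% highest Scrublet scores, for Gzma (0.093), Hspa1a (0.34) and Hspa1b (0.40) in macrophage-like and monocyte-like cells only, for the fibroblast list (-0.21) without fibroblast-like clusters, and for Mki67 (-0.046) and the DNA replication list (-0.0093) after reweighting. The causes were not tested beyond what each setting removes. Depth limits the smaller clusters, and the pools limit every comparison.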

Other observations

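Stress and activation genes not described above differed in few members, and the values are log2 ratios of cKO over WT in summed UMIs. Of all genes 3.35% were past the limit and higher and 1.37% lower. Of 10 heat shock genes 2 were past the limit and lower, the chaperone genes Hspa1a (170.0 against 69.9 CPM) and Hspa1b (-1.11), beside a list median of 0.02, and both turned above 0 in macrophage-like and monocyte-like cells only. That setting left out cluster 2, which Hspa1a led and which held a smaller share of the cKO cells. Within cluster 2 none of the 10 heat shock genes was above 0, and 2 were past the limit and lower (median -0.53). The list median in clusters 0, 1, 3 and 4 was -0.13, -0.07, -0.26 and 0.10. Of 16 immediate-early genes 2 were past the limit and higher, the transcription factor genes Egr2 (70.6 against 154.0 CPM) and Egr3 (22.5 against 45.2 CPM), and the list median was 0.32. Egr2 was at 0.98 and Egr3 at 0.41 after reweighting, and Egr2 was at 0.70 with the 4-fold margin for WT. Among 12 genes of lipid-associated macrophages the fatty acid carrier gene Fabp4 alone was past the limit (86 and 217 UMIs, 1.14), with a list median of 0.05. The 8 chemokine receptor genes had none past the limit (median -0.07).

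Genes of the Y chromosome were read as a check of the pools. Ddx3y, Eif2s3y, Kdm5d and Uty had log2 ratios of -0.72, -0.66, -0.91 and -0.72 in cKO over WT, with a list median of -0.55 after reweighting and 0.24 in irradiated tumor. Xist had 1 UMI in each label.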
